A study of Mus musculus with 16 samples.

Results

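The respiratory chain of the inner mitochondrial membrane was followed through 47 mouse nuclear genes, chosen by gene name as subunits of complexes I to IV or as cytochrome c, out of 24562 entries in an RNA-seq table reduced to 1 transcript per gene. They comprised 26 genes of complex I, 4 of complex II, 9 of complex III, the somatic cytochrome c gene Cycs and 7 of complex IV. The choice was by name, not by a cut on measured values, but it was made with earlier results of these data known. The table held 16 libraries from mice of the ApoE-/- strain, which lack apolipoprotein E and are prone to atherosclerosis. Whole aortas gave 5 libraries labelled cre and 5 labelled wt. B1b cells, an innate-like B cell subset sorted from peritoneal lavage fluid as CD19hi B220lo IgMhi CD5lo cells, gave 3 libraries labelled cre and 3 labelled wt. The cre mice are described by the series as deficient in CD40, a costimulatory receptor, in B cells alone, and the wt mice as wild type. The ApoE-/- strain is shared by all 4 groups. The labels do not name the promoter that drives Cre, the altered part of Cd40, any allele carried by the wt mice, or the age of the animals. They do not say that each library came from its own mouse, so the p-values below reflect the spread among libraries, which may be technical.

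Complex I takes electrons from NADH and complex II takes them from succinate, and both pass them to ubiquinone. Complex III hands them on to cytochrome c, and complex IV hands them to oxygen, while complexes I, III and IV pump the protons that drive ATP synthase. The genes studied here are all nuclear, and the core subunits encoded by mitochondrial DNA are not among them. Chain transcripts are known to be abundant in heart muscle and in brown fat, tissues that oxidise much fuel. Ndufa4 is counted with complex I by its name, although its protein is now placed with complex IV.

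Library totals ran from 1645926 to 7300894 counts in cre aortas and from 1979777 to 7141771 in wt aortas. In B1b cells they ran from 6815829 to 9911226 counts in cre and from 7375650 to 9209536 in wt. Cd40, the targeted gene, had 30.5, 29.0 and 38.6 CPM in cre B1b cells, against 38.2, 33.9 and 37.0 CPM in wt B1b cells. Those groups overlapped, and the log2 fold change was -0.16 with a 95% interval of -0.45 to 0.13. In aortas Cd40 had 6.36, 1.78, 4.80, 6.42 and 8.64 CPM in cre, against 12, 5.33, 6.96, 7.58 and 4.76 CPM in wt, and the groups overlapped there too. Since the deleted stretch is unknown, transcript counts do not check the genotype labels. Apoe averaged 29.8 ± 7.25 CPM in cre aortas and 32.3 ± 6.71 CPM in wt aortas (SD, n = 5 each), and 4.27 ± 0.946 CPM in cre B1b cells and 8.25 ± 1.06 CPM in wt B1b cells (SD, n = 3 each). Every cre B1b value of Apoe was below every wt B1b value, as for 7.48% of all genes. Its log2 fold change there, -0.95 with a 95% interval of -1.58 to -0.33, did not pass (edgeR adjusted p = 0.152). The sample types matched their markers. All 6 B cell markers were higher in wt B1b cells than in wt aortas (median log2 fold change 7.97), and all 6 smooth muscle markers were lower (median -9.84).

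All 47 genes were in the table, and 46 passed the filter on low counts in every comparison. The exception was Cox7c, which encodes a small subunit of complex IV and had 50 counts in total over the 16 libraries. It had 0 to 9 counts in a cre aorta, 1 to 7 in a wt aorta, 0 to 4 in a cre B1b library and 0 to 4 in a wt B1b library. Cycs had 422 counts in total. Both genes have near copies elsewhere in the genome. Of all words of 50 bases in the Cox7c transcript, 53% also occur in a transcript of another gene, 3 pseudogenes among them. The same share was 28.2% for Cycs, with 10 pseudogenes, 43.2% for Uqcrb and 35.8% for Ndufs3. How the authors' counting treated reads that fit several places is not given in the sources used here, so the values of these 4 genes are uncertain. No such word was shared for 30 of the 47 genes.

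Levels of different genes were compared as CPM per kilobase of transcript. In complex IV, Cox4i1, the ubiquitous form of subunit IV, was the highest gene of all, with 788 ± 167 in cre aortas, 461 ± 102 in wt aortas, 209 ± 20.4 in cre B1b cells and 224 ± 12.6 in wt B1b cells (CPM per kilobase, mean ± SD, n = 5 per aortic group and 3 per B1b group). In complex III, Uqcrh, the hinge protein, led every group, with 469 ± 81.4 in cre aortas and 297 ± 51.7 in wt aortas. Its level was 176 ± 12.9 CPM per kilobase in cre B1b cells and 179 ± 7.91 in wt B1b cells. The leading gene differed between the sample types in the remaining complexes. In complex I it was Ndufa4 in aortas, at 338 ± 67.1 CPM per kilobase in cre and 202 ± 80.3 in wt, and Ndufa6, an accessory subunit, in B1b cells, at 94.8 ± 17.1 in cre and 95.2 ± 11.1 in wt. In complex II the iron-sulfur subunit gene Sdhb led in aortas, at 185 ± 56.4 CPM per kilobase in cre and 118 ± 49.0 in wt, and the flavoprotein gene Sdha led in B1b cells, at 86.7 ± 3.95 in cre and 85.4 ± 2.97 in wt. Leaving out Cox7c, Cycs was the lowest of the 47, at 1.63 ± 0.508 CPM per kilobase in cre aortas, 2.57 ± 1.55 in wt aortas, 0.965 ± 0.289 in cre B1b cells and 0.819 ± 0.303 in wt B1b cells. The lowest gene of complex I was Ndufs3, a core subunit of the peripheral arm, in aortas and Ndufs4, an accessory subunit, in B1b cells.

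Many nuclear genes of the chain are known targets of nuclear respiratory factor 1 (NRF1), of GABP, also called nuclear respiratory factor 2, of the oestrogen-related receptors (ERR) and of YY1. Promoters of 300 bases were present for 37 of the 47 genes in RefSeq's table for GRCm38.p6, and they were searched on both strands. The NRF1 motif, GCGCA followed by any base and GCGC, was in 7 of the 37 promoters (18.9%), against 4.82% of all 27025 promoters of the same length. The GABP motif CCGGAAG was in 9 (24.3%, against 9.14% of all), the YY1 motif AAGATGGCG in 5 (13.5%, against 1.48%) and the ERR motif TNAAGGTCA in 1 (2.7%, against 1.24%). None of the 4 motifs contains another, and a match describes letters, not a bound site. The 150 bases before the start of 4 genes are shown, because Ndufs6, Ndufa5 and Ndufb10 are the complex I genes of smallest p in the aortic comparison and Sdhd, for the membrane anchor of complex II, has 2 different motifs in this stretch. They are chr13:73328483-73328632 for Ndufs6, chr6:24527691-24527840 for Ndufa5, chr17:24724424-24724573 for Ndufb10 and chr9:50603850-50603999 for Sdhd, all on the minus strand of GRCm38.p6. The sequences read 5′ to 3′ in the direction of the gene, and capitals mark the NRF1 motif in either orientation, and in Sdhd also the reverse complement of the GABP motif. The Ndufb10 stretch holds none of the 4 motifs.
Ndufs6: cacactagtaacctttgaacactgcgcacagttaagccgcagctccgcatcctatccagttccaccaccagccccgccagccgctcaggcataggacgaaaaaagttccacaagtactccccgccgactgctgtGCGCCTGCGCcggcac
Ndufa5: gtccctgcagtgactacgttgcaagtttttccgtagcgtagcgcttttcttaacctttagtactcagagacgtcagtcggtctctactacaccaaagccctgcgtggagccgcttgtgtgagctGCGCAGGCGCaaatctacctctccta
Ndufb10: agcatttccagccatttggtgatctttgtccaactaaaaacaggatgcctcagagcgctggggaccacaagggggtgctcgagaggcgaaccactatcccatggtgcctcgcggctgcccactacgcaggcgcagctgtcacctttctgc
Sdhd: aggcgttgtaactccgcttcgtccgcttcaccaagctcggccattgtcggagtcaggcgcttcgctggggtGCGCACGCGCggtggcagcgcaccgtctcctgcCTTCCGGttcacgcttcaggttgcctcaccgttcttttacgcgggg

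The first comparison asked how the chain's transcripts differed between cre and wt aortas. None of the 46 genes tested passed at an adjusted p under 0.05, in a table where 0.0150% of 13364 genes passed as higher in cre and 0.00% as lower (edgeR quasi-likelihood test, Benjamini-Hochberg adjustment; smallest adjusted p of the 46 genes 0.156). Their log2 fold changes nevertheless lay to one side. Of the 46, 45 were above 0, against 50.2% of all genes tested, and their median was 0.64, against 0.0023 for all genes. An unadjusted p under 0.05 was reached by 37, all of them higher in cre, against 6.87% of all genes higher and 5.72% lower. The cre libraries lay wholly above the wt libraries for 6 of them and wholly below for 0, against 1.65% and 1.22% of all genes. The medians were 0.61 for complex I, 0.38 for complex II, 0.68 for complex III and 0.75 for complex IV, and Cycs stood at -0.58. In whole tissue, more cells of a type and more RNA per cell cannot be told apart.

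The call depended on the method and on the shallowest libraries. DESeq2 called 14 of the 46 genes higher, against 0.950% of all genes (127 higher and 77 lower of 13364), and limma-voom called 0 of the 46. Without the 2 aortas under 2000000 counts, cre replicate 2 and wt replicate 5, edgeR called 30 of the 46 higher, with a median of 0.87, against 0.562% of all genes (77 higher and 13 lower of 13713). These were also the lowest cre and the highest wt library for the chain genes, so leaving them out widens the difference whatever their depth. Leaving out either library alone gave 0 calls, with medians of 0.74 without cre replicate 2 and 0.80 without wt replicate 5.

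Among the 26 complex I genes, 22 had an unadjusted p under 0.05 and all 26 were above 0, from 0.42 to 0.83. Ndufs6, which lies at chr13:73319876-73328482 and encodes a zinc-binding accessory subunit, had 65.8, 52.7, 99.8, 68.7 and 64.4 CPM in cre aortas, against 40.5, 33.3, 45.9, 34.3 and 45.0 CPM in wt aortas. Every cre aorta was above every wt aorta, and cre replicate 3 stood highest. The log2 fold change was 0.83 (SE 0.17, 95% interval 0.47 to 1.19, edgeR adjusted p = 0.156), and without the 2 shallow aortas it was 0.93 (edgeR adjusted p = 0.0389). Ndufb10, at chr17:24722060-24724423, encodes an accessory subunit of the membrane arm and had 165, 153, 215, 162 and 163 CPM in cre aortas, against 118, 97.1, 109, 82.7 and 124 CPM in wt aortas. These groups did not overlap either. Its log2 fold change was 0.70 (SE 0.14, edgeR adjusted p = 0.156). Ndufa5, at chr6:24518662-24527690, encodes an accessory subunit of the peripheral arm and had 93.0, 71.0, 104, 102 and 113 CPM in cre aortas, against 64.9, 50.2, 64.4, 37.8 and 71.4 CPM in wt aortas. The groups overlapped narrowly, with cre replicate 2 just below wt replicate 5, and the log2 fold change was 0.75 (SE 0.18, edgeR adjusted p = 0.164). Groups that did not overlap were also seen for Ndufa2, Ndufb2 and Ndufb7, further accessory subunits, named after their values were seen.

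Complex II, the link to the tricarboxylic acid cycle, had the smallest median of the 4 complexes, and 1 of its 4 genes reached an unadjusted p under 0.05. That gene was Sdhb, at chr4:140961271-140979198, with 153, 137, 287, 250.3 and 231 CPM in cre aortas, against 94.1, 114, 130.3, 103 and 232 CPM in wt aortas. Wt replicate 5 stood far above the other wt aortas and inside the cre range. The log2 fold change was 0.66 (SE 0.26, edgeR adjusted p = 0.33), and 1.04 without the 2 shallow aortas (edgeR adjusted p = 0.0348). Sdha, the catalytic flavoprotein, had 328, 212, 586, 629 and 364 CPM in cre aortas, against 223, 279, 253, 257 and 657 CPM in wt aortas. Its highest value of all 10 was that of wt replicate 5, and the interval of its log2 fold change, -0.42 to 1.11, covered 0. Sdhd, whose promoter is shown above, had 134, 98.3, 180.5, 192 and 148 CPM in cre aortas, against 105, 93.1, 105, 95.3 and 186 CPM in wt aortas, with overlap, and it stood at 0.37 on the log2 scale (SE 0.21, edgeR adjusted p = 0.483).

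In complex III all 9 genes were above 0, and 8 had an unadjusted p under 0.05. Uqcrq, at chr11:53427922-53430831, encodes a small subunit close to cytochrome b and had 182, 153, 227, 202 and 172 CPM in cre aortas, against 95.7, 87.8, 137, 84.6 and 141 CPM in wt aortas. The groups did not overlap, and the log2 fold change was 0.78 (SE 0.17, edgeR adjusted p = 0.156). Uqcr10, at chr11:4701968-4704344, encodes another small subunit and had 170.0, 127, 191, 166 and 152 CPM in cre aortas, against 103, 77.8, 106, 70.7 and 128 CPM in wt aortas. Cre replicate 2 and wt replicate 5, the shallowest pair, were nearly equal, and the remaining cre aortas were above every wt aorta. Its log2 fold change was 0.74 (SE 0.17, edgeR adjusted p = 0.156). Cycs, the mobile carrier between complexes III and IV, was the exception to the common direction, with 6.85, 3.55, 3.60, 4.78 and 6.60 CPM in cre aortas, against 7.90, 7.11, 8.07, 1.72 and 15.3 CPM in wt aortas. The wt aortas held both its lowest and its highest value, and the interval of its log2 fold change ran from -1.54 to 0.39 (edgeR adjusted p = 0.619), on 6 to 51 counts a library.

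All 6 tested genes of complex IV, the oxidase that reduces oxygen, had an unadjusted p under 0.05. Cox4i1, at chr8:120668225-120674209, had 534, 426, 767, 620.4 and 588 CPM in cre aortas, against 335, 303, 378, 251 and 451 CPM in wt aortas. The cre values were above all wt values except for cre replicate 2, which was below wt replicate 5. The log2 fold change was 0.77 (SE 0.18, edgeR adjusted p = 0.164), and 0.96 without the 2 shallow aortas (edgeR adjusted p = 0.0348). Cox5b, at chr1:36691487-36693388, encodes a zinc-binding subunit and had 44.8, 43.8, 79.2, 66.3 and 62.7 CPM in cre aortas, against 28.2, 28.4, 39.5, 25.2 and 48.2 CPM in wt aortas. Cre replicates 1 and 2 lay within the wt range and the other cre aortas stood above it. Its difference of 0.83 on the log2 scale (SE 0.21, edgeR adjusted p = 0.183) was the largest of the 46, and of all words of 50 bases in its transcript 25.9% are shared with another gene.

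**Figure D1:**
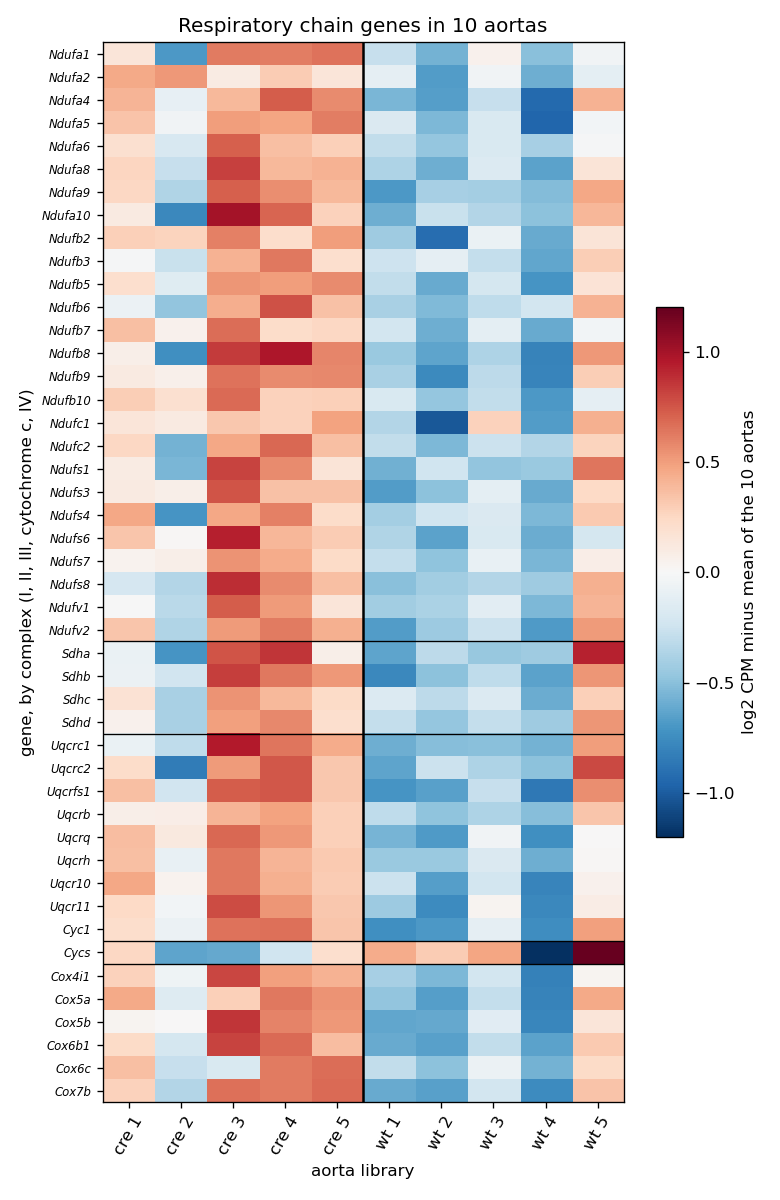
Level of each tested gene in the 10 aortas, as log2 CPM minus the gene's mean over those aortas (colour scale), with genes in rows by complex and cre libraries in columns to the left of wt libraries. Cre replicates 1, 3, 4 and 5 and wt replicate 5 are mostly red, wt replicates 1 to 4 are mostly blue, and Cycs runs against the rest. In cre replicate 2 only 8 of the 46 genes are above the median of the 10 aortas.

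The genes varied together from library to library, and the aortas did not split cleanly by genotype. The mean log2 CPM of the 46 genes was 6.82, 6.40, 7.21, 7.15 and 6.99 in cre aortas, against 6.20, 6.10, 6.42, 5.98 and 6.92 in wt aortas. Above the median of the 10 aortas stood 43, 8, 44, 45 and 45 of the 46 genes in cre replicates 1 to 5, against 1, 1, 4, 0 and 39 in wt replicates 1 to 5. Cre replicate 2 therefore stood with the wt aortas and wt replicate 5 with the cre aortas. Cre replicate 3 held the highest value of 24 genes, and wt replicate 4 held the lowest value of 26.

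Other lists of mitochondrial and energy metabolism genes lay to the same side in cre aortas, with no gene past the threshold. The 11 complex I subunit genes outside the 47 had a median log2 fold change of 0.58, and 8 had an unadjusted p under 0.05, with Ndufa3 at 0.75 and Ndufa11 at 0.66 of smallest p. For the 14 tested subunits of ATP synthase the median was 0.57, and 9 had an unadjusted p under 0.05, led by Atp5j2 at 0.89 and Atp5e at 0.65. Medians were 0.52 for 17 genes of fatty acid oxidation, 0.46 for 16 of glycolysis, 0.38 for 14 of the tricarboxylic acid cycle and 0.38 for 73 mitochondrial ribosomal proteins. The 40 assembly factors, which build the complexes without staying in them, had a median of 0.33. Lists outside energy metabolism were also above 0, at 0.30 for 31 proteasome subunits and 0.25 for 61 cytosolic ribosomal proteins. The 14 regulators of mitochondrial biogenesis had a median of 0.058, and Ppargc1a, the coactivator PGC-1alpha, had 25.9, 24.9, 43.0, 57.4 and 23.4 CPM in cre aortas, against 18.4, 22.9, 24.8, 14.7 and 61.4 CPM in wt aortas. Its highest value was in wt replicate 5, and its interval of -0.48 to 1.2 covered 0.

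Markers of heart muscle and fat varied among the same aortas. All 9 heart muscle markers were detected in both groups, and their log2 fold changes had a median of 1.43 with none past the threshold. Their summed level was 7124, 3708, 6639, 828 and 6534 CPM in cre aortas, against 2248, 2793, 2916, 686 and 1523 CPM in wt aortas. Cre replicate 4 was low in heart markers and high in chain genes. The 7 brown adipocyte markers summed to 724, 788, 1816, 2005 and 674 CPM in cre aortas, against 387, 497, 827, 655 and 2056 CPM in wt aortas, where replicate 5, the wt library with the highest chain level, also had the highest sum. That list includes Cpt1b, the muscle form of carnitine palmitoyltransferase, so its sum is not particular to brown fat. The 7 adipocyte markers summed to 1372, 796, 2576, 3462 and 1249 CPM in cre aortas, against 512, 508, 1013, 1015 and 2598 CPM in wt aortas. None of the 9 heart, 7 brown adipocyte or 7 adipocyte markers was at 0 throughout an aortic group. The median log2 fold change was 0.57 for the brown adipocyte list, 0.81 for the adipocyte list, 2.88 for 7 skeletal muscle markers and -0.13 for 6 smooth muscle markers. It was 1.27 for 6 nerve and Schwann cell markers, of which 3 had an unadjusted p under 0.05 and none passed. These summed to 80.9 to 827 CPM in cre aortas, with replicate 4 far above the rest, against 61.7 to 158 CPM in wt aortas. Among 5 tested B cell markers the median was 0.33, and 1 passed as higher (edgeR adjusted p = 0.0119), 1 of the 2 calls over all genes. The 6 B cell markers summed to 104, 158, 81.6, 71.5 and 112 CPM in cre aortas, against 51.7, 58.0, 47.6, 39.2 and 54.0 CPM in wt aortas, without overlap. Their mean log2 CPM did overlap, at 2.47 to 4.42 in cre aortas and 1.78 to 2.96 in wt aortas. Log2 fold changes within the list ran from 0.085 to 3.24. Medians were 0.23 for 4 endothelial, 0.16 for 6 macrophage and -0.69 for 2 T cell markers, with none past the threshold. The part of these cell types in the difference between cre and wt aortas was not tested.

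**Figure D2:**
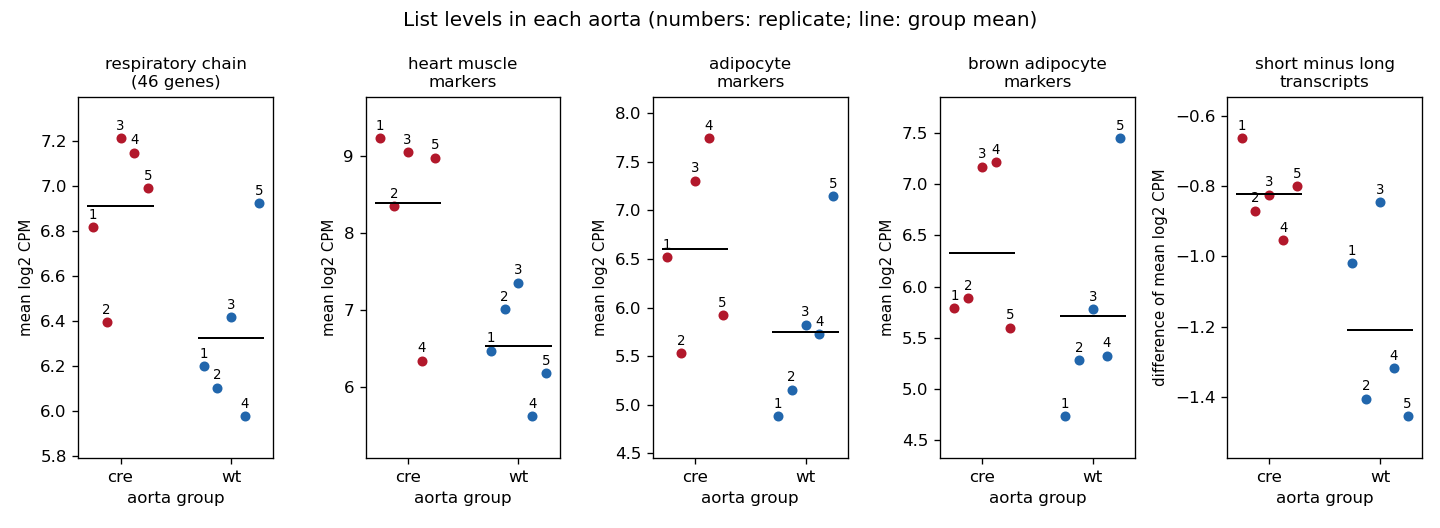
Mean log2 CPM of the 46 respiratory chain genes and of the heart muscle, adipocyte and brown adipocyte marker lists in each aorta, and the mean log2 CPM of transcripts up to 700 bases minus that of transcripts over 5000 bases. Each point is 1 library with its replicate number, cre is left of wt, and lines are group means. Cre replicate 2 is the lowest cre library and wt replicate 5 the highest wt library for the chain genes, which is also true of the adipocyte list.

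Transcript length moved with genotype in aortas as well. The 46 genes had a median transcript length of 812 bases, against 2981 bases over all genes tested in aortas. Among genes outside the 47, the median log2 fold change was 0.32 for 267 transcripts of up to 700 bases and 0.24 for 947 of more than 700 and up to 1200 bases, but -0.16 for 2518 of more than 5000 bases. In the same classes the chain genes stood at 0.64 for 18 genes of up to 700 bases and 0.67 for 13 of more than 700 and up to 1200 bases. They stood at 0.60 for 10 genes of more than 1200 and up to 2000 bases, where 2341 other genes stood at 0.12. The mean log2 CPM of short minus long transcripts was -0.66, -0.87, -0.82, -0.95 and -0.80 in cre aortas, against -1.02, -1.41, -0.85, -1.32 and -1.46 in wt aortas. Only wt replicate 3 overlapped the cre aortas. With a smooth correction for length in each library, the median of the 46 genes was 0.39, against 0.016 for all genes, and 45 stayed above 0. An unadjusted p under 0.05 remained for 13, and none passed (edgeR, smallest adjusted p 0.4). In that fit 2 of 13230 genes passed as higher and 0 as lower, and the share of all genes at an unadjusted p under 0.05 was not counted. The part of RNA integrity or library preparation in this trend was not tested.

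**Figure D3:**
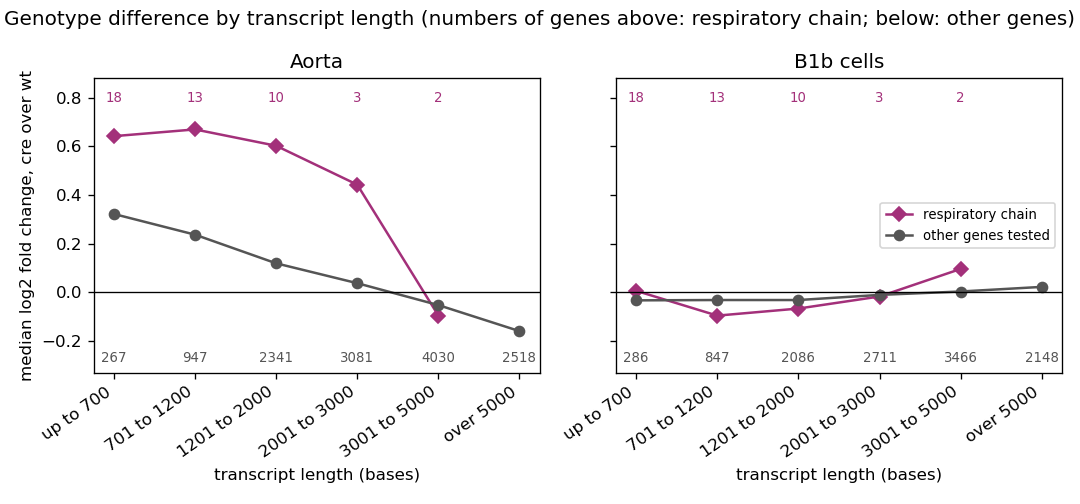
Median log2 fold change, cre over wt, by transcript length class for the respiratory chain genes (diamonds) and all other genes tested (circles), in aortas and in B1b cells, with the number of chain genes along the top and of other genes along the bottom. In aortas the other genes run from 0.32 in the shortest class to -0.16 in the longest and the chain genes lie above them up to 3000 bases, while the B1b medians stay near 0.

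The second comparison asked the same of sorted B1b cells, the cells in which the series places the deletion. None of the 46 genes passed, in a table where 0.494% of 11732 genes passed as higher in cre and 0.222% as lower (edgeR quasi-likelihood test, Benjamini-Hochberg adjustment). DESeq2 and limma-voom also called 0. Of the 46, 18 were above 0, against 49.1% of all genes tested, and the median log2 fold change was -0.046. At an unadjusted p under 0.05, 1 gene was lower in cre and 0 were higher, against 5.68% and 7.61% of all genes. The cre libraries lay wholly below the wt libraries for 3 genes and wholly above for 0, against 7.48% and 9.89% of all genes. The mean log2 CPM of the 46 genes was 5.13 ± 0.102 in cre B1b cells and 5.16 ± 0.0327 in wt B1b cells (SD, n = 3 each).

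The gene of smallest p was Uqcr10, with 20.0, 16.5 and 22.6 CPM in cre B1b cells, against 23.3, 25.6 and 25 CPM in wt B1b cells. Every cre value was below every wt value, and the log2 fold change was -0.33 (SE 0.16, 95% interval -0.66 to -0.0015, edgeR adjusted p = 0.374). Ndufs3 had 16.9, 19.2 and 19.9 CPM in cre B1b cells, against 22.9, 23.0 and 21.3 CPM in wt B1b cells, also without overlap. Sdhb was the third such gene, at -0.14, named after its values were seen. For Ndufs3 the log2 fold change was -0.27 (SE 0.16, edgeR adjusted p = 0.492). Ndufv2, an iron-sulfur core subunit, had 63.9, 69.0 and 56.2 CPM in cre B1b cells, against 52.1, 53.2 and 57.7 CPM in wt B1b cells. There the lowest cre value lay within the wt range, and the log2 fold change was 0.20 (SE 0.11, edgeR adjusted p = 0.44). Ndufv1, the core subunit that binds NADH, stood at -0.18, Ndufa2 at -0.31 and Cyc1, the cytochrome c1 of complex III, at -0.18 on the log2 scale, all with overlapping groups. The widest intervals were those of genes with few counts, such as -0.80 to 1.25 for Cycs, while Cox4i1 had an interval of -0.31 to 0.079 and Sdha one of -0.14 to 0.17.

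Related lists in B1b cells had medians below 0. The median log2 fold change was -0.17 for the 11 other complex I subunits, -0.098 for 13 ATP synthase subunits, -0.037 for 14 genes of the tricarboxylic acid cycle, -0.01 for 40 assembly factors and -0.057 for 14 biogenesis regulators, with no gene of these 5 lists past the threshold (edgeR). Of the 11 other complex I subunits, 10 were below 0. Glycolysis had a median of -0.13, with 12 of 16 genes below 0 and none past the threshold. In that list 5 genes were lower at an unadjusted p under 0.05, against 5.68% of all genes. For 7 of the 16 the cre libraries lay wholly below the wt libraries, against 7.48% of all genes. The glycolysis gene of smallest p was Aldoa, an aldolase, at -0.36 (SE 0.086, edgeR adjusted p = 0.0582). Ndufb11 at -0.22 and Atp5e, the epsilon subunit of ATP synthase, at -0.34 had the smallest p of the first 2 lists. Outside energy metabolism, medians were also below 0, at -0.096 for 68 cytosolic ribosomal proteins and -0.064 for 31 proteasome subunits. Above 0 were 15 of the 68 and 11 of the 31, and 1 proteasome gene passed as higher (edgeR). Of 6 macrophage markers in B1b cells, 5 were above 0 with a median of 0.95, and 1, the receptor gene Csf1r, passed as higher in cre at 0.99 (edgeR adjusted p = 0.0346). Their summed level was 275, 296 and 277 CPM in cre B1b cells, against 106, 158 and 211 CPM in wt B1b cells. Of 6 B cell markers, 1 passed as lower in cre (edgeR adjusted p = 2.28e-05, the smallest of all 11732 genes). The list had a median of -0.088 and ran from -0.73 to 0.19. The part of these markers in the B1b values of the chain genes was not tested.

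**Figure D4:**
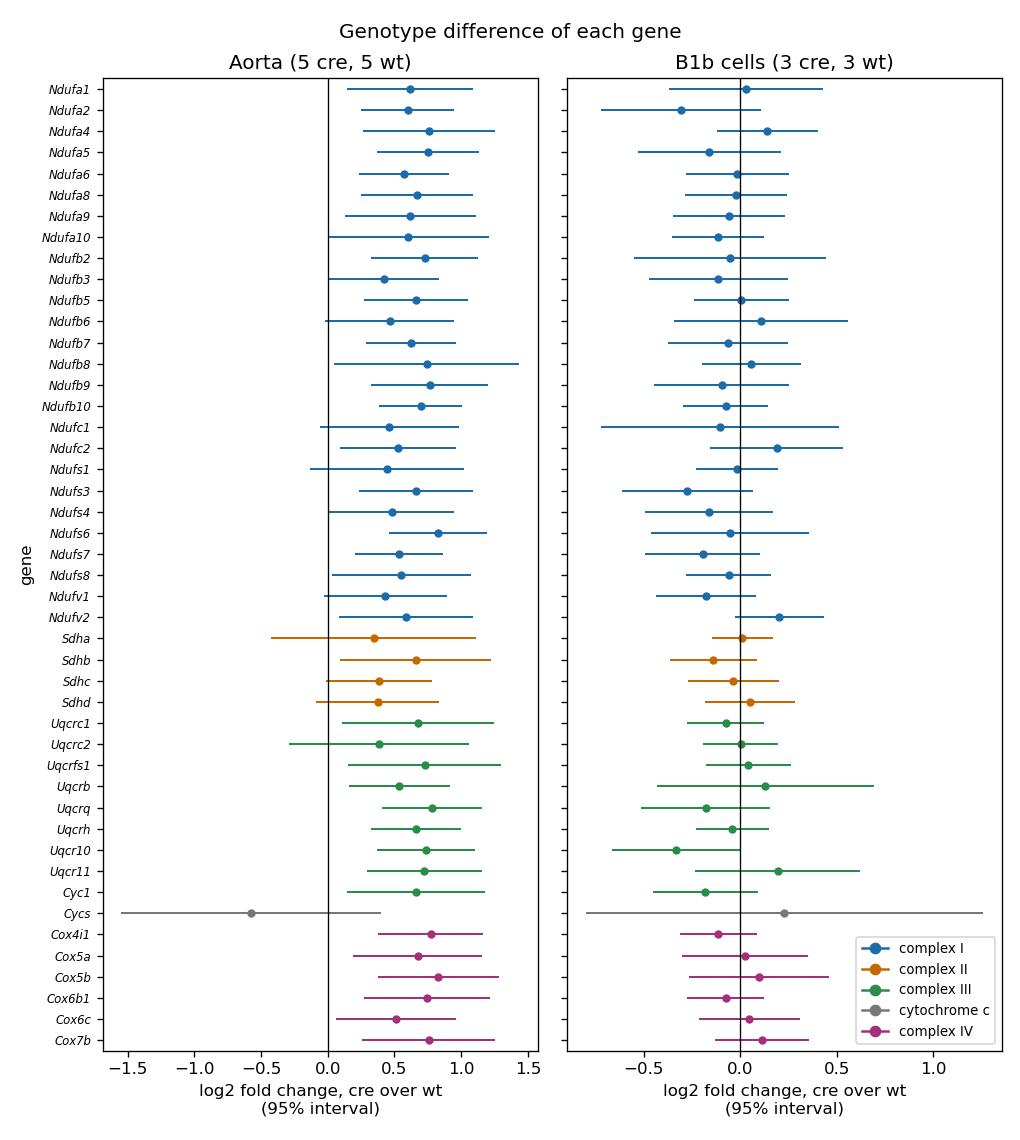
Log2 fold change, cre over wt, of each tested respiratory chain gene in aortas (left) and B1b cells (right), as points with 95% intervals, coloured by complex. In aortas 45 of 46 points lie above 0 and only Cycs lies below, and in B1b cells 18 of 46 lie above 0.

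The genotype differences of the 2 sample types were then set against each other in one fit of all 16 libraries. None of the 46 genes differed at an adjusted p under 0.05, where 0.00663% of 15091 genes passed as higher in B1b cells and 0.0133% as lower (edgeR quasi-likelihood test, Benjamini-Hochberg adjustment). The difference, B1b minus aorta, was above 0 for 1 of the 46, Cycs, against 45.6% of all genes, and its median was -0.68, against -0.051 for all genes. An unadjusted p under 0.05 was reached by 20 genes, all below 0, against 6.18% of all genes. With the length correction the difference was weaker, with a median of -0.40 and 7 genes at an unadjusted p under 0.05. None passed there (edgeR, smallest adjusted p 0.316), where 0 of 14892 genes passed as higher and 2 as lower. DESeq2 called 2 of the 46 lower, against 0.451% of all genes (105 higher and 68 lower of 15091). Without the 2 shallow aortas edgeR also called 2 lower, against 0.0801% of all genes (5 higher and 12 lower of 14979). Uqcr10 had the smallest p, with log2 fold changes of -0.33 in B1b cells and 0.74 in aortas and a difference of -1.08 (SE 0.25, edgeR adjusted p = 0.155). For Ndufb10 the difference was -0.78 (SE 0.20, edgeR adjusted p = 0.186), and for Uqcrq it was -0.97 (SE 0.26, edgeR adjusted p = 0.19). Outside the chain, 1 of 6 B cell markers passed as lower (edgeR adjusted p = 0.0012, the smallest of all genes), 1 of 2 such calls. Differences within that list ran from -4.02 to 0.94.

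The last comparison set wt B1b cells against wt aortas, which differ in cell type, in sorting and in how RNA was obtained, and these cannot be told apart. Chain transcripts took a smaller share of the counts in B1b cells. Of the 46 genes, 38 were lower in B1b cells and 0 were higher, where 38.7% of 15091 genes passed as lower and 33.4% as higher (edgeR quasi-likelihood test, Benjamini-Hochberg adjustment). All 46 were below 0, with a median log2 fold change of -1.09, against -0.12 for all genes, and 40 had B1b libraries wholly below the aortas, against 37.5% of all genes. By complex, 21 of 26 genes of complex I, 3 of 4 of complex II, 7 of 9 of complex III, Cycs and 6 of 6 of complex IV passed. The median of all genes moved by more than 0.1 with some scalings. It was -0.28 with RLE size factors and with DESeq2, where the 46 genes had medians of -1.25 and -1.25, and it was 0.16 with the length correction, where they had a median of -0.62 and 31 were called lower, against 34.6% of all genes.

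The 4 genes of largest difference encode small subunits. All 4 transcripts have words of 50 bases shared with other genes (10.9% for Uqcr11, 8.6% for Ndufc1, 43.2% for Uqcrb and 24.4% for Ndufb2). Uqcr11, of complex III, had 13.7, 14.2 and 14.7 CPM in wt B1b cells, against 63.2, 50.7, 87.6, 50.1 and 91.0 CPM in wt aortas. The B1b libraries lay close together and far below every aorta, with a difference of -2.23 on the log2 scale (SE 0.24, edgeR adjusted p = 1.12e-07). Ndufc1, of complex I, had 7.59, 6.65 and 7.22 CPM in wt B1b cells, against 29.2, 18.2, 45.1, 23.3 and 50.3 CPM in wt aortas, and its log2 fold change was -2.16 (SE 0.30, edgeR adjusted p = 2.67e-06). The aortas themselves differed widely, with wt replicates 3 and 5 the highest. Uqcrb stood at -2.06 and Ndufb2, of the membrane arm of complex I, at -2.03.

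At the other end of the 38 calls were Ndufb10 at -0.65, Uqcrh at -0.69, Cox5b at -0.72 and Ndufa9, an accessory subunit near the quinone site, at -0.89. Ndufb10 had 69.3, 67.4 and 60.3 CPM in wt B1b cells, against 118, 97.1, 109, 82.7 and 124 CPM in wt aortas. The groups did not overlap (edgeR adjusted p = 0.00051), but with the length correction these 4 genes no longer passed. The 8 genes that did not pass were the complex I genes Ndufa6, Ndufa10, Ndufs1, Ndufs3 and Ndufs8, the complex III core genes Uqcrc1 and Uqcrc2 and the flavoprotein gene Sdha, named here after their values were seen. Sdha had 238, 251 and 255 CPM in wt B1b cells, against 223, 279, 253, 257 and 657 CPM in wt aortas. Its B1b values lay among those of wt aortas 1 to 4, and wt replicate 5 alone was far above them.

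Neighbouring lists did not all share this direction between wt B1b cells and wt aortas, where 38.7% of all genes passed as lower and 33.4% as higher. In fatty acid oxidation 14 of 17 genes were lower in B1b cells, with a median of -1.73 and Cpt1b, the muscle form of carnitine palmitoyltransferase, at -3.66. In the tricarboxylic acid cycle 9 of 14 were lower, with Idh2, the mitochondrial NADP-dependent isocitrate dehydrogenase, at -2.44. ATP synthase had 10 of 14 lower, including Atp5k at -1.72 and Atp5g3 at -1.2, and the other complex I subunits had 9 of 11 lower. Among the 40 assembly factors 10 were higher, 9 were lower and 21 did not pass. Sdhaf2, which helps flavinate Sdha, was at 1.12, while Uqcc2, an assembly factor of complex III, was at -1.31. Mitochondrial ribosomal proteins had 14 of 74 higher, 17 lower and 43 that did not pass. In both lists the calls in each direction were a smaller share than among all genes. Of the 14 biogenesis regulators 10 were higher and 2 lower in B1b cells. Yy1, at 1.53, and Nrf1, at 1.17, encode the factors whose motifs were searched above, while Ppargc1a stood at -2.18 with 6.67, 6.01 and 5.03 CPM in wt B1b cells, against 18.4, 22.9, 24.8, 14.7 and 61.4 CPM in wt aortas. Cytosolic ribosomal proteins had 50 of 67 higher, and none lower, in B1b cells.

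**Figure D5:**
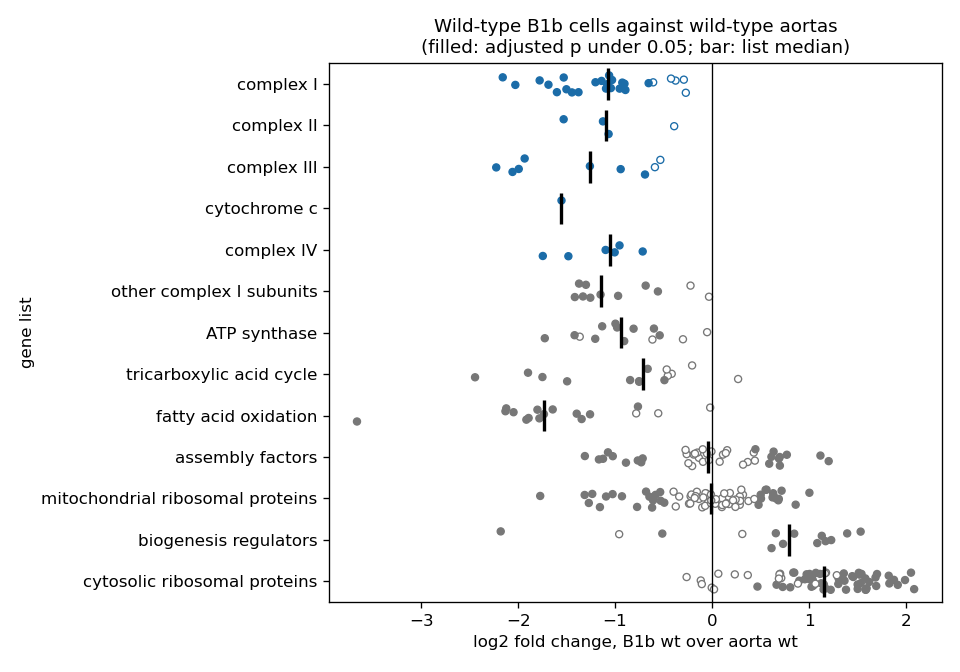
Log2 fold change of wt B1b cells over wt aortas for each tested gene of the respiratory chain, by complex (blue), and of related lists (grey), where filled points passed at an adjusted p under 0.05 and bars are list medians. Every respiratory chain gene lies below 0, the assembly factors and mitochondrial ribosomal proteins lie on both sides, and most cytosolic ribosomal proteins lie above 0.

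Complex IV has tissue forms of some subunits, which are outside the 47 genes and complete the picture of the oxidase. Cox8b, the heart and muscle form of subunit VIII, had 121, 84.0, 228, 199 and 128 CPM in cre aortas, against 40.0, 39.3, 84.8, 37.6 and 169 CPM in wt aortas, and at most 0.282 CPM in any B1b library. Its level in wt replicate 5 was above 3 of the cre aortas, and the log2 fold change of 1.06 did not pass (edgeR adjusted p = 0.381). Its highest values were in cre replicates 3 and 4 and wt replicate 5. Those aortas also had the highest brown adipocyte marker sums (1816, 2005 and 2056 CPM), while cre replicate 4 was the lowest cre aorta in heart muscle markers. The part of muscle and of fat in the levels of these tissue forms was not tested. Per kilobase, Cox8b made up 57.7% to 62.1% of the 2 forms of subunit VIII in cre aortas and 37.8% to 64.5% in wt aortas. The muscle form Cox7a1 made up 41.9% to 50.7% of Cox7a1 and Cox7a2 in cre aortas and 26.2% to 46.2% in wt aortas. Cox6a2 made up 4.31% to 45.2% of the 2 forms of subunit VIa in cre aortas and 9.37% to 30.3% in wt aortas, with the lowest share in both groups in the replicate 4 library, which was also the lowest of its group in heart muscle markers. The ubiquitous forms were present in B1b cells, where Cox8a averaged 60.2 ± 9.71 CPM in cre and 61.3 ± 5.22 CPM in wt, Cox6a1 averaged 64.7 ± 3.61 CPM in cre and 70.9 ± 7.36 CPM in wt, and Cox7a2 averaged 29.5 ± 2.47 CPM in cre and 33.5 ± 1.57 CPM in wt (SD, n = 3 each). Cox4i2, the lung form of subunit IV, was at 0 counts in all 6 B1b libraries and at 0.480 to 4.89 CPM in cre aortas and 0 to 4.11 CPM in wt aortas.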

How the data were processed

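RNA was sequenced from 10 aortas and 6 sorted B1b cell samples. RNA was taken up in TRIzol and sequenced from KAPA mRNA Hyperprep libraries, per the labels' protocols. The submitters' processing notes list STAR 2.5.2b, CASAVA 1.8.2 and mm10 as tools and build. Which program counted reads, on which annotation and with what strand setting is not given in the sources used here. As deposited, the table contains whole-number read counts per RefSeq transcript, not normalized by the authors, and its columns carry the sample titles. Of 35745 transcripts, 35440 took a gene name from RefSeq, 188 from GENCODE and 117 none. The transcript of highest total count was kept per gene. Entries without a name, 0.24% to 2.5% of the counts of a library, stayed out of library sizes and tests. Groups follow the genotype labels, and replicates are numbered in sample order, which pairs nothing.

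Each sample type was fitted with edgeR 4.0.16 in R 4.3.3 (TMM, filterByExpr, robust quasi-likelihood test), and the B1b against aorta and difference tests used 1 fit of 16 libraries. P-values were adjusted by Benjamini-Hochberg over every gene tested and called below 0.05. CPM used TMM library sizes, and log2 CPM a prior count of 2. Alternatives used DESeq2 1.42.0, limma 3.58.1, RLE and upper-quartile factors, no filter, the transcript of lowest count, a loess offset on transcript length (span 0.5), left-out libraries and both genotypes. Coordinates are those of GRCm38.p6, the assembly behind mm10. The scripts were tested on simulated counts. Genes of the chain, gene lists and tests were chosen with earlier results of these data known. Named genes were those of smallest p per complex in aortas (3 of complex I, 1 of II, 2 of III, Cycs and 2 of IV), the 6 of smallest p in B1b cells, the 4 highest and 4 lowest calls between B1b cells and aortas, and the 3 of smallest p for the difference, plus the 2 of smallest p in related lists. Counts of a library limit precision by counting error alone.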

Additional observations from a re-analysis of the deposited data

Results flagged for a closer look

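Of 42 sets of 5 aortas examined, 5 held a library set apart from the other 4 by Dixon's test. Chance alone sets apart about 1 in 20 independent sets, but these sets share libraries and the genes varied together. In 4 of the 5 flagged sets the library was wt replicate 5, the shallowest wt aorta. It had 231.8 CPM of Sdhb, 193.7 CPM of Ndufv2, 50.3 CPM of Uqcrb and 137.6 CPM of Ndufa9, against the other wt aortas at 94.1 to 130.3 CPM, 85.1 to 114 CPM, 27.9 to 32.1 CPM and 61.5 to 75.5 CPM for these genes. The fifth was cre replicate 3, with 214.8 CPM of Ndufb10 against 153 to 165 CPM in the other cre aortas. Depth, RNA quality and the marker levels of these libraries were not tested as causes.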

How the results depend on the processing

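The counts of chain genes past the threshold changed with 2 settings in the genotype comparisons. In aortas the 0 calls became 14 higher with DESeq2, which called 127 higher and 77 lower over all 13364 genes, and 30 higher without the 2 aortas under 2000000 counts, where 77 higher and 13 lower of 13713 genes were called, against 2 higher and 0 lower in the fit reported. For the difference between B1b cells and aortas, 2 chain genes were lower with each of these settings, among 68 lower of 15091 genes with DESeq2 and 12 lower of 14979 without those aortas. The 2 left-out aortas were also the lowest cre and the highest wt library for the chain genes. The cause was not tested. Leaving out 1 library at a time gave 0 calls higher and 0 lower in aortas (median log2 fold change 0.54 to 0.80), 0 in B1b cells (median -0.067 to -0.0032) and 0 for the difference (median -0.83 to -0.58). Between wt B1b cells and wt aortas it gave 37 to 41 genes lower (median -1.18 to -0.94), among 5490 to 5985 lower over all genes tested. Other settings gave 31 to 46. The 46 came with both genotypes in the contrast, among 6723 lower of 15091 genes, against 5838 lower in the fit reported. The 31 came with the length correction, among 5146 lower of 14892 genes. That correction moved the median of the chain genes to -0.62, with 3 genes above 0. Among named genes, 5 calls between B1b cells and aortas ended, those of Cycs with limma-voom and of Ndufb10, Cox5b, Uqcrh and Ndufa9 with the length correction, and that of Cycs ended without wt B1b replicate 2. No call of a named gene reversed in these settings, but chain genes that did not pass could change sign. Without wt aorta 5, 1 gene was above 0 between wt B1b cells and wt aortas, and in B1b cells 13 to 22 of the 46 were above 0 over all settings. The few counts of Cycs and Cox7c limit what can be said of those genes. No paired analysis was possible because the labels give no replicate numbers that link cre and wt samples.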
